A study of Homo sapiens with 8 samples.

Results

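Acute phase genes encode plasma proteins that the liver makes in changed amounts during infection or injury. The 10 genes described here were chosen by name: the fibrinogen chain genes FGA, FGB and FGG, the haem and haemoglobin carrier genes HP and HPX, the orosomucoid genes ORM1 and ORM2, the protease inhibitor genes SERPINA1 and SERPINA3, and LBP, which encodes the lipopolysaccharide binding protein. All 10 were found, each on 1 row, among 24462 genes, and 9 passed the filter on low counts (all but LBP). The cells were HepG2, an established human line of hepatic tumour origin. One group is labelled mock and the other overexpresses EDN1, the gene of the secreted vasoconstrictor peptide endothelin-1. Each group held 4 libraries, named mock 1 to 4 and EDN1 1 to 4, and both were grown in the same serum-containing medium. The labels do not say how EDN1 was introduced, what the mock cells received, or whether a line was 1 clone. Nothing says that each library is its own culture, so a p-value here reflects no more than the spread among these libraries, which may be technical.

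In the liver, acute phase genes are driven mainly by interleukin-6, which acts through a receptor with the shared subunit gp130, the JAK kinases and the transcription factor STAT3, while SOCS3 feeds back on that signal. C/EBP factors act on many of the same promoters. Fibrinogen, SERPINA3 and SERPINA1 are textbook examples of genes that interleukin-6 alone can raise. ORM1 and the serum amyloid genes SAA1 and SAA2 are examples of those that respond most to interleukin-6 with interleukin-1. Fibrinogen itself is a hexamer of paired alpha, beta and gamma chains, from which clots are built.

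Total counts ran from 8409173 to 14932385 per library. QuantSeq, the kit used, sequences a tag from the 3′ end of each transcript, so a count approximates a number of transcripts whatever their length. EDN1 matched its label in every library, at 1.04 to 2.26 CPM in mock and 228 to 549 CPM in EDN1 overexpression (CPM is the count scaled to a common library size, with TMM scaling). All 10 hepatocyte markers on a list of 10 were measured, with summed levels of 8339 to 10651 CPM in mock and 7325 to 11061 CPM in EDN1 overexpression. Of 8 macrophage markers 3 passed the filter (CD68, CD14 and LYZ) and MARCO was at 0, with sums of 414 to 762 and 379 to 771 CPM, nearly all of it LYZ. Other lists of markers summed to 34.4 to 192 and 38.9 to 269.9 CPM for 8 stellate or fibroblast markers (LUM and THY1 at 0), most of it ACTA2, to 1.37 to 4.33 and 1.98 to 3.59 CPM for 8 endothelial markers (KDR and CLEC4G at 0), to 9.79 to 18.0 and 12.5 to 19.1 CPM for 8 lymphocyte markers (CD3E and CD2 at 0), and to 849 to 998 and 841 to 1218 CPM for 6 cholangiocyte markers (CFTR at 0).

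The libraries also fell into sets that no label explains. With the 10 genes left out, clustering placed mock 4, EDN1 3 and EDN1 4 (the second set) apart from the other 5 libraries (the first set) in 6 of 8 combinations of distance and linkage. In the other 2, both with complete linkage, mock 2, mock 4 and EDN1 4 stood apart instead. For that reason fold changes within each set accompany the ones from all 8 libraries. The second set holds a single mock library.

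Promoters are printed for the 3 fibrinogen genes, whose products form 1 protein, and for ORM1 and SERPINA3, which had the highest mean levels. They are the 250 bases before the RefSeq start site on build GRCh38.p14, 5′ to 3′, with capitals on any match, on either strand, to one of 5 sequences. These were the STAT element TTCNNNGAA, the interleukin-6 type II element CTGGGAA, the C/EBP element TTNNGNAA, the partial HNF1 element GTTAAT and the TATA box TATAAA. For FGB, RefSeq lists more than 1 start and the window before the downstream one is shown.
FGA, chr4:154590743-154590992, strand -: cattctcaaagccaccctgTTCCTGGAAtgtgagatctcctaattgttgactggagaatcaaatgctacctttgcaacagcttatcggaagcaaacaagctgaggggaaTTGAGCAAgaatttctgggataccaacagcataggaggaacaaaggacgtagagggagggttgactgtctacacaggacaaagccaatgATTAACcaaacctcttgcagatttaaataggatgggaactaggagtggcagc
FGB, chr4:154562761-154563010, strand +: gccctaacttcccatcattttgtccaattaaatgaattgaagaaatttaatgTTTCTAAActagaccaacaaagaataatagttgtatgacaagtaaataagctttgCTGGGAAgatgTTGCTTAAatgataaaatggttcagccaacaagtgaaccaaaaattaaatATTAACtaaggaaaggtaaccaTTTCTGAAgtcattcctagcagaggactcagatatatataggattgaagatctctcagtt
FGG, chr4:154612657-154612906, strand -: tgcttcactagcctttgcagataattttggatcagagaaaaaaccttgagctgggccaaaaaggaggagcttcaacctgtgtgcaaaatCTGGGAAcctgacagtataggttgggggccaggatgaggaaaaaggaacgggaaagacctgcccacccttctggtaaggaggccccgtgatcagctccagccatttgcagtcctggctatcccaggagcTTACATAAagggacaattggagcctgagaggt
ORM1, chr9:114322848-114323097, strand +: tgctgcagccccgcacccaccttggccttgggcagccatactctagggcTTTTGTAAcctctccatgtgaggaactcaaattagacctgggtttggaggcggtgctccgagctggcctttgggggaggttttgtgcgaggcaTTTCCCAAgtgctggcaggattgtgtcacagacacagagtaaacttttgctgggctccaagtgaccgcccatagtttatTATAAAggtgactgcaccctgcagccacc
SERPINA3, chr14:94612141-94612390, strand +: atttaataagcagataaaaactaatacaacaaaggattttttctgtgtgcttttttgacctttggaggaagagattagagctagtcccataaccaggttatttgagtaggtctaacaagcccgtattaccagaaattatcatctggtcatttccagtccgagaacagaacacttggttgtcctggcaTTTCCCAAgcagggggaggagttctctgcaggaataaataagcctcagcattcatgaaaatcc

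The STAT element was found in the FGA window only among these 5, against 6.57% of all 35116 RefSeq windows of this length. The type II element stood in the FGB and FGG windows, against 9.15% of all windows. The partial element of HNF1, a liver factor, stood in the FGA and FGB windows, against 6.23% of all windows. Each of the 5 held at least 1 C/EBP element, a sequence present in 33.2% of all windows, and in SERPINA3 it was the only match. Only ORM1 held the TATA box letters, against 10.7%. These matches describe letters and not bound sites. In all, 7 of the 10 genes had a promoter in the table. The HPX window held the type II and C/EBP elements. Of the SERPINA1 windows, 1 held a C/EBP element and the partial HNF1 element, and the other held no match.

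The comparison asked whether EDN1 overexpression changed these genes. None of the 9 measured genes passed the test: edgeR called 0 of 9 in either direction at an adjusted p of 0.05 (quasi-likelihood test, Benjamini-Hochberg over all 12577 genes), where 0.00795% of all genes were called (EDN1 alone). At an unadjusted p under 0.05 there were 0 of 9 in edgeR, against 2.85% of all genes, and 0 of 9 in DESeq2 and 1 of 9 (FGG) in limma voom. DESeq2 and limma voom also called 0 of 9 after adjustment. The log2 fold change was negative in 8 of the 9 and positive in HP, with a median of -0.28 against 0.00 over all genes tested, of which 6255 of 12577 were negative. ORM1 and ORM2 have near-equal counts and largely identical 3′ ends, described further on, and may be 1 signal in these numbers. Taken separately, the library sets gave medians of -0.11 (first) and -0.13 (second). In no gene of the 9 did the 4 libraries of one group lie apart from the 4 of the other, which was so in 2.04% of all genes (0.668% with EDN1 overexpression lower). In bulk RNA, fewer cells making a transcript and less transcript per cell cannot be told apart.

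**Figure D1:**
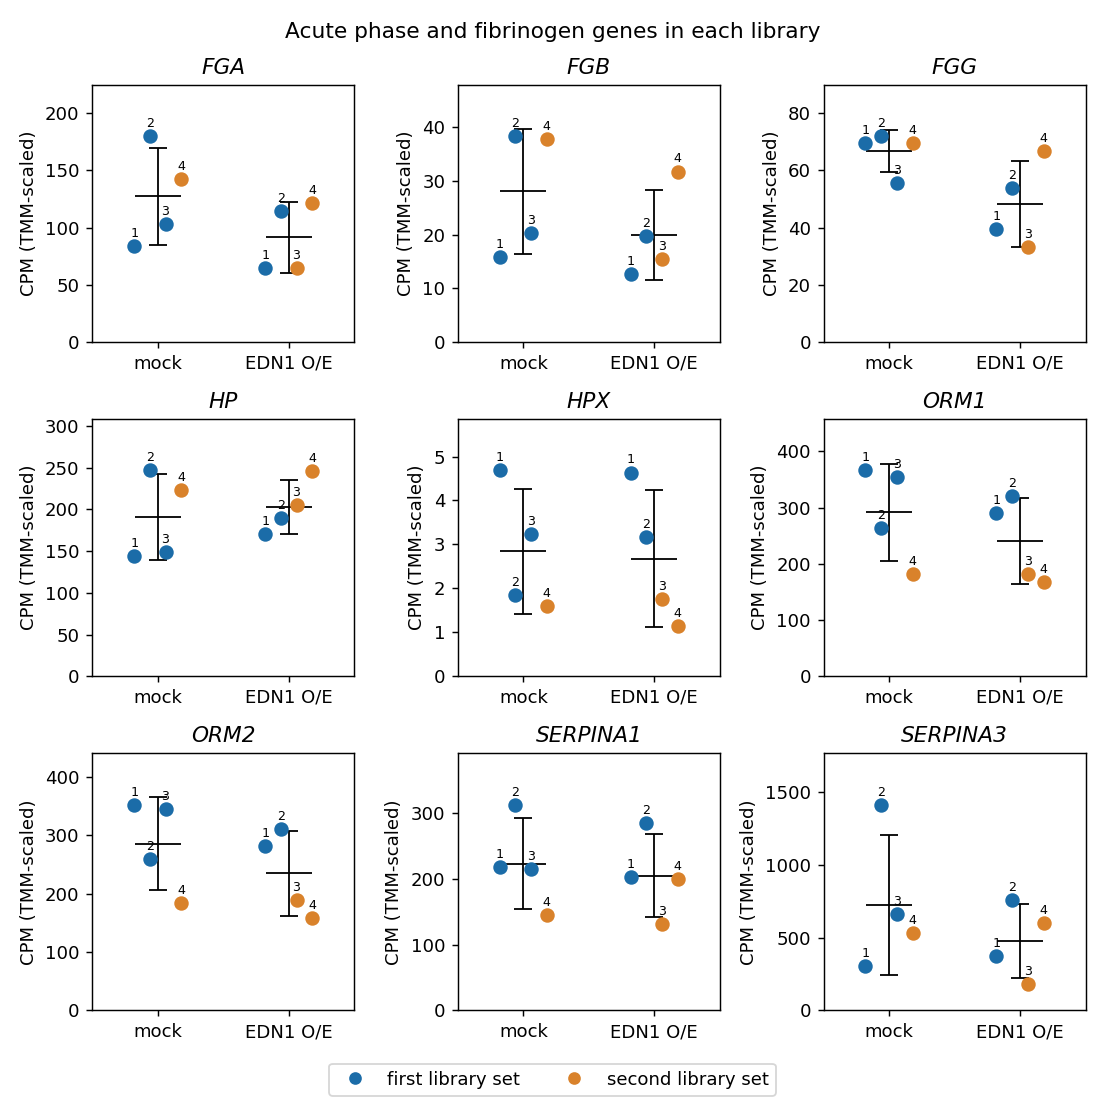
Level of each of the 9 measured genes (CPM, TMM-scaled) in each library, with mock on the left and EDN1 overexpression on the right of each panel. Points are libraries, labelled by number and coloured by library set, and bars are the mean ± SD of 4 libraries. The groups overlap in every panel, and the second set sits below the first for HPX, ORM1, ORM2 and SERPINA1.

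The fibrinogen genes had lower means in EDN1 overexpression, by a like amount in each chain, and none passed the test. FGA, which encodes the alpha chain, stood at 84.4, 179.7, 103 and 143 CPM (mock 1 to 4) and at 64.8, 115, 65.2 and 122 CPM (EDN1 1 to 4). Its highest library was mock 2, and EDN1 1 and EDN1 3 were below every mock library while EDN1 2 and EDN1 4 lay within the mock range. Mock averaged 127 ± 42.5 CPM against 91.6 ± 30.9 CPM with EDN1 overexpressed (mean ± SD, n = 4). On the log2 scale the change was -0.48 (SE 0.29, 95% interval -1.11 to 0.16).

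FGB, the gene of the beta chain, was the least counted of the 3, at 15.9, 38.3, 20.3 and 37.7 CPM (mock 1 to 4) and at 12.8, 19.8, 15.5 and 31.8 CPM (EDN1 1 to 4). Mock 2, mock 4 and EDN1 4 were high and the other 5 libraries low, and the groups overlapped. Its fitted log2 change was -0.49 (SE 0.35, 95% interval -1.26 to 0.28).

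FGG, the gene of the gamma chain, had the narrowest mock range for its level, at 69.6, 71.9, 55.8 and 69.5 CPM (mock 1 to 4) and at 39.5, 53.8, 33.3 and 66.7 CPM (EDN1 1 to 4). EDN1 1, EDN1 2 and EDN1 3 were below every mock library, and EDN1 4 was above mock 3. Mock averaged 66.7 ± 7.37 CPM against 48.3 ± 15.0 CPM with EDN1 overexpressed (mean ± SD, n = 4). On the log2 scale the change was -0.47 (SE 0.21, 95% interval -0.94 to 0.01). Its unadjusted p by edgeR, 0.0536, was the smallest of the 9 genes and became 1.000 after Benjamini-Hochberg adjustment. All 3 chains had negative fold changes within each library set. On the log2 scale they were -0.45 and -0.62 for FGA in the first and second sets, -0.61 and -0.69 for FGB, and -0.50 and -0.48 for FGG. With the complete linkage sets as a term instead, added after seeing the data, FGA was at -0.27, FGB at -0.21 and FGG at -0.40. The values moved with single libraries: with 1 library left out, FGA ran from -0.64 (without EDN1 4) to -0.27 (without mock 2), FGB from -0.81 (without EDN1 4) to -0.31 (without mock 2 or mock 4), and FGG from -0.66 (without EDN1 4) to -0.32 (without EDN1 3).

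The chains did not keep a fixed ratio to one another. Of the summed fibrinogen counts, FGA took 49.7 to 62.0%, FGG 24.8 to 41.0% and FGB 9.37 to 15.1% per library. The lowest FGA share and the highest FGG share were both in mock 1 (49.7% and 41.0%), and the reverse held in mock 2 (62.0% and 24.8%), so the widest contrast lay within the mock group. The FGB share was 15.1%, 13.6% and 14.4% in mock 4, EDN1 3 and EDN1 4, which were the 3 highest, followed by mock 2 at 13.2%. Summed over the chains, fibrinogen ran from 169.9 to 289.9 CPM in mock and from 114 to 220.3 CPM in EDN1 overexpression.

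The carrier genes differed in level by far more than between groups. HP, which encodes the haemoglobin-binding protein haptoglobin, was the only one of the 9 with a positive fold change, at 145, 247, 149 and 223 CPM (mock 1 to 4) and at 171, 190.0, 205 and 246 CPM (EDN1 1 to 4). Mock 1 and mock 3 were the lowest libraries, and mock 2 and EDN1 4 the highest. The fitted log2 change was 0.09 (SE 0.21, 95% interval -0.37 to 0.55), and the sets taken alone gave 0.0043 (first) and 0.0052 (second).

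HPX encodes hemopexin, which binds free haem, and it had few reads, with counts of 60, 15, 28 and 23 (mock 1 to 4) and of 57, 28, 20 and 10 (EDN1 1 to 4). Mock 1 and EDN1 1 were high, at 4.68 and 4.64 CPM, and EDN1 4 was lowest at 1.15 CPM. The fitted log2 change of -0.08 (SE 0.47, 95% interval -1.13 to 0.98) had a wide interval, and it was 0.24 within the first set.

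HP may share reads with HPR, a neighbouring gene of closely similar sequence. HPR had 0.853 to 0.912 times the HP count in every library. In GENCODE 29 transcripts, 163 of 251 windows of 50 bases in the last 300 bases of HP also occur in HPR, and the same number of ORM1 windows occur in ORM2. ORM2 had 0.946 to 1.03 times the ORM1 count. The sources used here do not say how reads with several matches were counted. Both members of each pair are therefore uncertain. The last 300 bases of FGA, FGB, FGG, HPX, SERPINA1 and LBP shared 0 of 251 windows with another gene, and those of SERPINA3 were shared in full with the annotated gene AL049839.2.

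**Figure D2:**
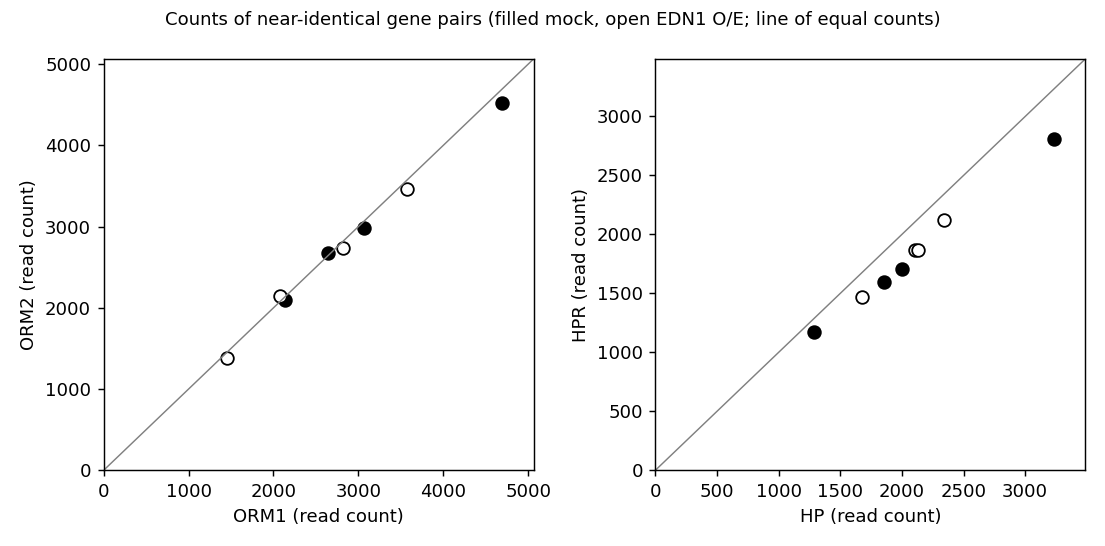
Read counts of ORM2 against ORM1 and of HPR against HP, 1 point per library (filled mock, open EDN1 overexpression), with the line of equal counts. ORM2 follows ORM1 within 0.946 to 1.03 times and HPR stays at 0.853 to 0.912 times HP in both groups.

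The orosomucoid genes encode small acidic carrier proteins of plasma. ORM1 stood at 366, 263, 355 and 182 CPM (mock 1 to 4) and at 291, 320.4, 182 and 168 CPM (EDN1 1 to 4). The 3 libraries of the second set were the lowest of the 8, whichever group they belonged to. Mock averaged 292 ± 86.3 CPM against 240.4 ± 76.5 CPM with EDN1 overexpressed (mean ± SD, n = 4). On the log2 scale the change was -0.28 (SE 0.27, 95% interval -0.88 to 0.32) over all libraries, and the sets taken alone gave -0.10 and -0.069. With 1 library left out it ran from -0.45 (without mock 4 or EDN1 2) to -0.14 (without EDN1 4). The ORM2 change was -0.28 (SE 0.26) and ran likewise from -0.45 (without EDN1 2) to -0.14 (without EDN1 4).

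The protease inhibitor genes varied widely within each group. SERPINA3, which encodes alpha-1-antichymotrypsin, an inhibitor of cathepsin G, stood at 304, 1414, 661 and 531 CPM (mock 1 to 4) and at 372, 757, 179.9 and 598 CPM (EDN1 1 to 4). Its highest library, mock 2, was 7.86 times its lowest, EDN1 3, the widest spread of the 9 genes. Mock averaged 728 ± 481 CPM against 477 ± 253 CPM with EDN1 overexpressed (mean ± SD, n = 4), and the fitted log2 change of -0.61 (SE 0.49, 95% interval -1.70 to 0.48) was -0.067 without mock 2. Without another library it ran from -0.92 (without EDN1 2) to -0.34 (without EDN1 3).

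SERPINA1 encodes alpha-1-antitrypsin, the inhibitor of neutrophil elastase, and stood at 218, 312, 215 and 145 CPM (mock 1 to 4) and at 203, 285, 131 and 199 CPM (EDN1 1 to 4). Mock 2 and EDN1 2 were high, and the 3 libraries of the second set were the lowest of the 8. The fitted log2 change was -0.12 (SE 0.27, 95% interval -0.72 to 0.47), and the sets taken alone gave -0.029 (first) and 0.18 (second).

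LBP had counts of 2, 9, 3 and 7 (mock 1 to 4) and of 1, 4, 0 and 2 (EDN1 1 to 4). Most of these lie at or under the 3 counts that a count of 0 allows, equal to 0.201 to 0.357 CPM over the 8 libraries, and no fold change is given. These limits cover counting error only.

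**Figure D3:**
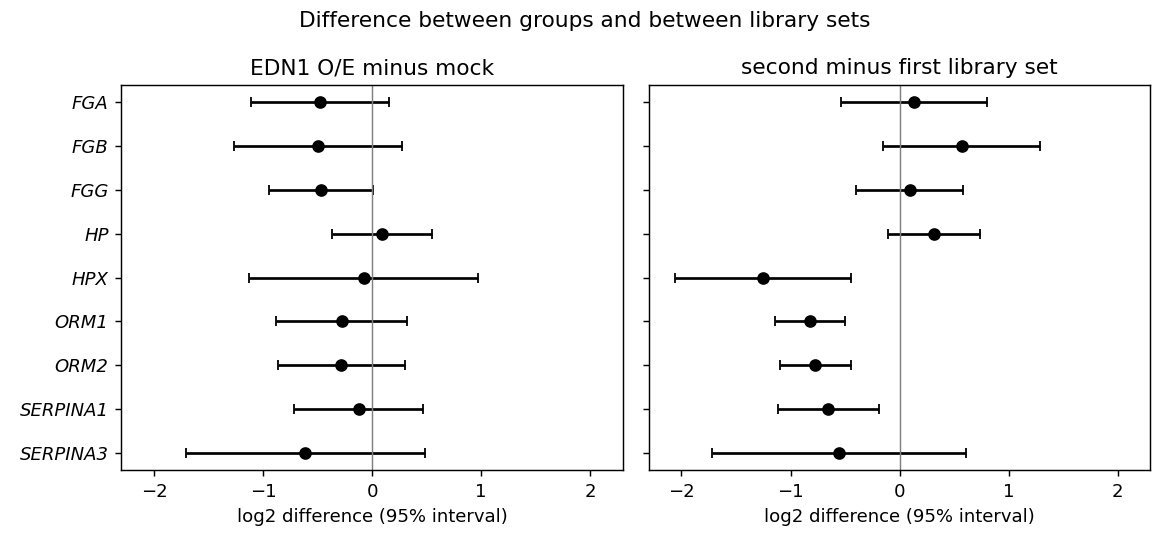
Log2 difference with its 95% interval (edgeR) for the 9 measured genes, between EDN1 overexpression and mock on the left and between the second and the first library set, with the group in the model, on the right. Every interval on the left includes 0, and those of HPX, ORM1, ORM2 and SERPINA1 on the right lie below 0.

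By mean level, SERPINA3 came first at 602 CPM, followed by ORM1 (266), ORM2 (260.3), SERPINA1 (214), HP (197), FGA (109.5), FGG (57.5), FGB (24.0) and HPX (2.76 CPM), with LBP last. The ranges over libraries overlapped between each gene and the next in this order from SERPINA3 to FGG and from FGG to FGB, and HPX lay below every FGB library. Per kilobase of the deposited gene length, SERPINA3 (379 CPM per kilobase), ORM1 (317) and ORM2 (308) stayed on top. HP (138) passed SERPINA1 (53.7) and FGG (26.7) passed FGA (20.7). As a QuantSeq count approximates transcripts whatever their length, this second order depends on the deposited lengths and does not rank transcript numbers. The 10 genes together held 0.147 to 0.268% of the counts in mock libraries and 0.102 to 0.211% in EDN1 overexpression libraries.

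Some of these genes passed the test between the library sets, which none did between the groups. Whether the set difference exceeds the group difference was not tested. ORM1 had a mean of 319 ± 43.2 CPM over the 5 libraries of the first set, against 178 ± 8.17 CPM over the 3 of the second (± SD). With group kept in the model this was a log2 difference of -0.82 (SE 0.14, 95% interval -1.14 to -0.50) with an adjusted p of 0.00533 (edgeR's quasi-likelihood test, Benjamini-Hochberg). ORM2 was lower too (-0.78, adjusted p = 0.00734 in edgeR), and so was HPX (-1.25, adjusted p = 0.0440 in edgeR). SERPINA1 had a log2 difference of -0.65 (SE 0.21, 95% interval -1.12 to -0.19) and did not pass (adjusted p = 0.0619 in edgeR). It did pass in DESeq2 (adjusted p = 0.0246), and in edgeR with library totals only (adjusted p = 0.0308) or with no low count filter (adjusted p = 0.00633). In limma voom HPX did not pass (adjusted p = 0.0533), so DESeq2 called 4 of 9 and limma voom 2 of 9 (ORM1 and ORM2). Over all genes, DESeq2 called 2429 and limma voom 1982, against 1876 in edgeR. FGA (0.13), FGG (0.09), FGB (0.57), HP (0.32) and SERPINA3 (-0.55) passed in none of the 3 tools. The count in edgeR was thus 3 of 9, or 2 signals if the orosomucoid pair is taken as 1, where 14.9% of all genes were called (9.64% lower in the second set), so the share among these few genes is not set apart from that background. In 4 of the 9 genes (HPX, ORM1, ORM2 and SERPINA1) the sets did not overlap, which was so in 23.2% of all genes. The sets were formed from the other genes of these same libraries, so these p-values are not independent evidence. Of the cell type markers, ACTA2 (-2.62) and the hepatocyte genes APOA1 and TF were also called lower in the second set. Of the 10 hepatocyte markers, 4 had positive and 6 negative differences. Of the 3 stellate or fibroblast markers tested, 1 was positive and 2 were negative. The part of these markers in the differences was not tested.

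The calls depended in part on how the sets were drawn, on the model and on single libraries. ORM1 and ORM2 were called with any 1 of the other 7 libraries left out. Without mock 4 none of the 9 was called, with ORM1 still at -0.80 (adjusted p = 0.0901 in edgeR). Calls over all genes fell too, from 1876 with every library to 296 without mock 4. The HPX call was lost without any 1 of 7 libraries (all but mock 2). With the replicate number as a block, 0 of the 9 and 6 genes in all were called, with ORM1 at -0.91. With the sets of complete linkage, chosen after seeing the data, ORM1 was at -0.68 and missed the threshold (adjusted p = 0.0696 in edgeR). FGB at 1.04 and HP at 0.55 passed it instead (adjusted p = 0.0168 and 0.0353 in edgeR). Those sets gave 1007 calls over all genes.

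**Figure D4:**
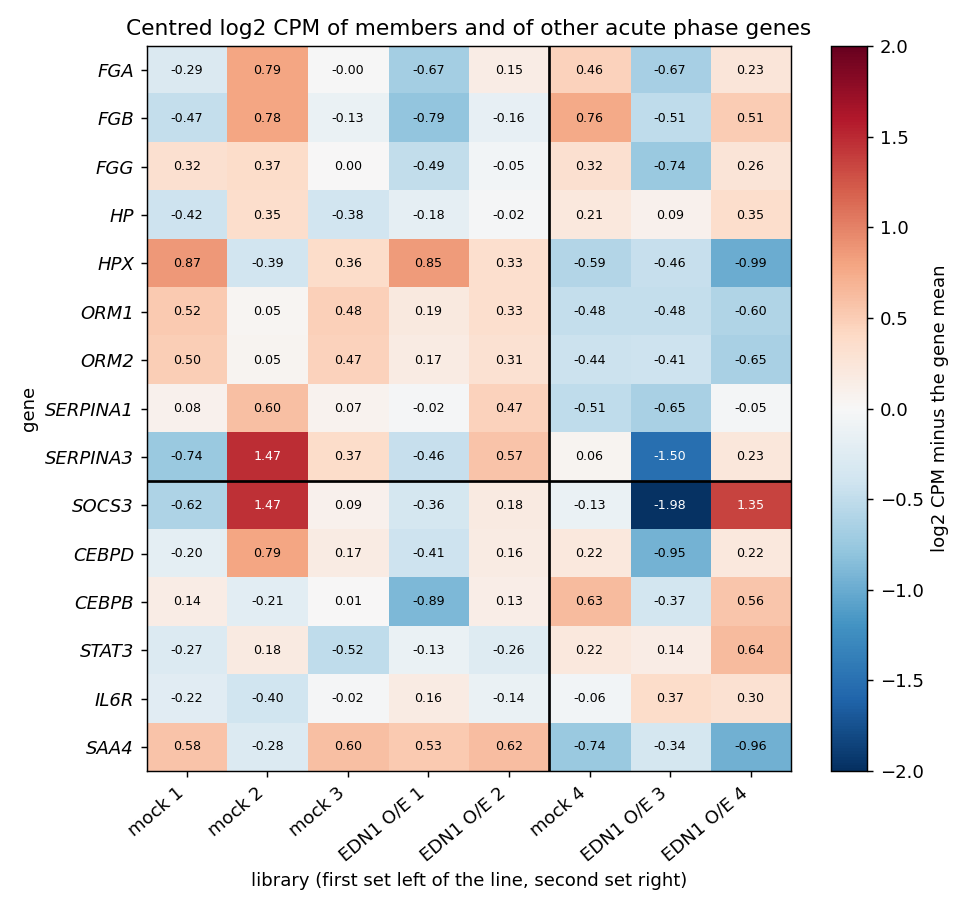
Log2 CPM minus the gene's mean over the 8 libraries, for the 9 measured genes (above the horizontal line) and 6 genes from the other lists (below), with the first library set left and the second set right of the vertical line. SERPINA3, SOCS3 and CEBPD are highest in mock 2 and lowest in EDN1 3, while ORM1, ORM2 and SAA4 are lowest in the second set. Among genes not shown, A2M and RBP4 are also highest in mock 2 and lowest in EDN1 3.

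Across the 8 libraries the 9 genes followed more than 1 pattern. Mock 2 held the highest level of 6 of them (FGA, FGB, FGG, HP, SERPINA1 and SERPINA3), and mock 1 that of the other 3 (HPX, ORM1 and ORM2). EDN1 3 held the lowest level of FGG, SERPINA1 and SERPINA3, EDN1 4 that of HPX, ORM1 and ORM2, EDN1 1 that of FGA and FGB, and mock 1 that of HP. The ratio of ORM1 to SERPINA3 counts ran from 0.186 in mock 2 to 1.20 in mock 1, a wider range within mock than within EDN1 overexpression (0.281 to 1.01). By the mean absolute difference of centred log2 CPM over the 8 libraries, the genes nearest to the mean fibrinogen pattern, of 8694 with a mean of at least 10 CPM, were HSPA13 (0.0908), ARID5B (0.0961), GCLC (0.106), LPAR6 (0.108) and IRX3 (0.112). On the same measure HP was at 0.302, SERPINA1 at 0.365, SERPINA3 at 0.506 and ORM1 at 0.634.

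The genes that act before and beside these proteins were read from lists. Of 19 cytokine and receptor genes 14 were tested and 0 were called in either direction by edgeR, DESeq2 or limma voom, with a median log2 fold change of 0.02. IL6 itself had at most 1 count in any library, IL1B at most 3 and TNF at most 8. At an unadjusted p under 0.05 there were 2, IL6R and IL6ST, in each of the 3 tools. IL6R, the interleukin-6 binding receptor gene, stood at 149, 131, 170.4 and 166 CPM (mock 1 to 4) and at 193, 157, 224 and 213 CPM (EDN1 1 to 4), with a log2 fold change of 0.35 (SE 0.16). EDN1 2 lay within the mock range and the other EDN1 libraries above it. IL6ST, the gp130 gene, was named after its values were seen and had a log2 fold change of -0.38 (SE 0.16). The 3 most counted genes of this list were IL11 (0.04 ± 0.24 SE on the log2 scale), IL6R and TNFRSF1A (-0.17 ± 0.13 SE). Between the library sets, LIFR (0.66) and the glucocorticoid receptor gene NR3C1 (0.72 on the log2 scale) were called higher in the second.

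Among 16 genes of JAK and STAT3 signalling, all tested, 0 were called by the 3 tools and 0 had an unadjusted p under 0.05, with a median log2 fold change of 0.13. SOCS3, the feedback inhibitor, stood at 3.90, 17.2, 6.49 and 5.53 CPM (mock 1 to 4) and at 4.72, 6.92, 1.40 and 15.8 CPM (EDN1 1 to 4). Mock 2 and EDN1 4 were high and EDN1 3 lowest, with a log2 fold change of -0.19 (SE 0.64). STAT3 had a log2 fold change of 0.20 (SE 0.23), the adaptor gene GRB2 -0.07 (SE 0.13) and the adaptor gene SHC1 -0.03 (SE 0.21). SHC1 was called lower in the second library set (-0.51).

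Of 18 transcription factor genes 17 were tested and 0 were called by the 3 tools, with a median log2 fold change of -0.02. CEBPD, an acute phase factor, stood at 21.5, 42.7, 27.8 and 28.7 CPM (mock 1 to 4) and at 18.5, 27.7, 12.7 and 28.8 CPM (EDN1 1 to 4). As in SERPINA3, mock 2 was highest and EDN1 3 lowest, and the log2 fold change was -0.46 (SE 0.29). Those extremes were not particular to acute phase regulators: A2M (1035 and 217 CPM) and RBP4 (901 and 203 CPM) had them too. RBP4 is on the list of proteins that fall in an acute phase response. The log2 fold change of CEBPB was -0.22 (SE 0.30), that of CEBPA 0.24 (SE 0.25) and that of HNF4A 0.09 (SE 0.14). FOXA2, a liver transcription factor gene, was called higher in the second library set (0.45).

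A further list held 22 genes of proteins tied to the acute phase, not all of which (A2M and SAA4, for example) rise in human inflammation. Of these 15 were measured, with 3 positive and 12 negative fold changes. The median was -0.28 on the log2 scale and 0 were called by the 3 tools. HAMP, the gene of the iron regulator hepcidin, was the 1 with an unadjusted p under 0.05 in each of the 3 tools and was named for that (-0.60 ± 0.22 SE on the log2 scale). CRP and APCS, which encode pentraxins, had 0 counts in all libraries, SAA1 at most 5 and SAA2 at most 11. Among the most counted were A2M (-0.50 ± 0.41 SE on the log2 scale) and C3 (-0.21 ± 0.28 SE). SAA4, which may share reads with the SAA2-SAA4 readthrough model, had a mean of 111 ± 24.7 CPM over the first library set against 51.5 ± 11.4 CPM over the second (± SD, 5 and 3 libraries), a log2 difference of -1.15 (adjusted p = 0.00918 in edgeR). IL1RN (-1.04) and TIMP1 (-0.70) also passed the test between the sets.

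Proteins whose level falls in an acute phase response were measured for 11 of 14 genes, with 3 positive and 8 negative fold changes, a median of -0.12 on the log2 scale and 0 called by the 3 tools. At an unadjusted p under 0.05 there were also 0. The most counted were AHSG (-0.14 ± 0.36 SE on the log2 scale), APOA2 (0.03 ± 0.28 SE) and RBP4 (-0.61 ± 0.38 SE). Between the library sets 5 of 11 passed the test, where 14.9% of all genes did (9.64% lower), and all 5 were lower in the second set: TF (-0.93), RBP4 (-1.10), SERPINA6 (-1.32), APOA1 (-0.82) and APOA2 (-0.70 on the log2 scale).

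Genes for the assembly, secretion and use of fibrinogen were measured for 16 of 19, with 0 called by the 3 tools, 0 at an unadjusted p under 0.05 and a median log2 fold change of 0.05. FN1, which encodes fibronectin, had a log2 fold change of 0.07 (SE 0.37), the chaperone gene HSPA5 0.27 (SE 0.18) and the chaperone gene CALR 0.13 (SE 0.25). CALR (-0.64) and P4HB (-0.54), which encodes a disulphide isomerase, were called lower in the second library set.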

How the data were processed

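Libraries of HepG2 RNA (4 mock, 4 EDN1 overexpression) were made with QuantSeq, per the labels' protocols. The authors deposited raw counts, 1 column per library, beside a gene length. Per the submitters' processing notes, the tools were Bowtie2 and edgeR and the build hg19. Their versions, the read counter and any strand setting: not given in the sources used here. Rows of 1 symbol were summed (25737 rows, 288 repeated symbols, 24462 genes). Genes passing filterByExpr (minimum count 10), 12577 in all, were scaled by TMM and tested for the group effect by quasi-likelihood in edgeR 4.0.16 (R 4.3.3), without covariates. P-values were adjusted by Benjamini-Hochberg over all genes tested, with a threshold of 0.05. Log2 CPM for patterns and clustering used a prior count of 2. Standard errors are the fold change over the square root of F. The code was tested on simulated counts. Alternatives were other scalings and filters, DESeq2 1.42.0, limma 3.58.1 (voom), the replicate number as a block, the library set as a term, each set alone and each library left out. Sets came from average linkage on 1 minus the correlation. Whether complete linkage sets change a result was added after seeing the data. Promoters are from RefSeq (GRCh38.p14) and transcripts from GENCODE 29. They were matched by symbol.

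Members and lists were chosen with earlier results of these data known. Named genes were the 10 members, EDN1, the 3 most counted of each list and any called there, SOCS3, CEBPB, CEBPD, CRP and SAA1, and the 5 nearest in pattern to fibrinogen. Some genes that this rule names are not reported here.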

Additional observations from a re-analysis of the deposited data

Results flagged for a closer look

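In mock, the FGG level of mock 3 (55.8 CPM) lay far below the other 3 libraries, which ran from 69.5 to 71.9 CPM. Its gap to the nearest was 0.853 of the group's range, above Dixon's 95% critical value for 4 samples. It was the only such case among 20 groups of 4 screened (the 9 measured genes and EDN1 in both groups), and chance gives about 1 in 20.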

How the results depend on the processing

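The number of the 9 genes called between the groups was 0 under all 21 alternatives, and EDN1 kept its call and direction in each. The number of all genes called was 1 throughout except in DESeq2, where it was 3. The median log2 fold change of the 9 was negative in all 21, from -0.10 with the library set as a term to -0.45 without EDN1 2, against -0.28. FGA, FGB, FGG, ORM1, ORM2 and SERPINA3 kept their direction in all 21, while HP, HPX and SERPINA1, which lay nearest to 0, did not. With 1 library left out, HP ran from -0.023 to 0.24 (-0.011 without mock 3, -0.016 without EDN1 4), HPX from -0.49 to 0.30 (0.088 without EDN1 3, 0.16 without EDN1 4) and SERPINA1 from -0.33 to 0.084 (0.041 without EDN1 3). HPX was 0.13 with the library set as a term and 0.24 in the first set, and SERPINA1 was 0.048 with the set as a term and 0.18 in the second set. The cause was not tested.

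Between the library sets the number called was 0 with the replicate block, which called 6 genes in all and gave differences of -0.91 for ORM1, -0.78 for ORM2 and -0.99 for HPX. The number ran from 0 (without mock 4) to 5 (without mock 2) when 1 library was left out. The FGA difference turned to -0.24 with the replicate block and ran from -0.077 to 0.36 with 1 library left out (-0.019 without EDN1 1, -0.077 without EDN1 4). That of FGG turned to -0.31 and ran from -0.17 to 0.29 (-0.0066 without EDN1 1, -0.17 without EDN1 4). With complete linkage sets SERPINA1 became 0.023 and SERPINA3 0.78. Nothing says that replicate numbers pair the libraries. The correlations of same-numbered deviations from the group mean were 0.48, 0.15, -0.15 and 0.53 for numbers 1 to 4. The library sets were not removed from these deviations, so the correlations do not settle whether the numbers pair. Between the groups the replicate block gave a median log2 fold change of -0.29. Mock 1 and mock 4 correlated best with the EDN1 library of their own number, and mock 2 and mock 3 did not. For LBP and HPX, depth limits what could be seen.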
